A study of Tribolium castaneum with 17 samples.

Results

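*Flightin* (*TC010476*) and *henna* (*TC000087*) of *Tribolium castaneum*, the red flour beetle, are described here in every library of the series. Both were taken by identifier, and they are 2 of the 12302 gene models in the deposited table. The study named them as beetle homologs of fly genes of the adult body, among genes lower in the gonads than in the carcasses. That difference between carcass and gonad chose them, so it is given below as values with no test. Poly(A) RNA came from 17 libraries of wild type GA2 beetles in 6 groups. Libraries S1 to S3 were made from embryos of 0-5 hr, here also early embryos, and S4 to S6 from embryos of 6-11 hr, or late embryos. The female carcass gave S7, S8 and S9, the male carcass S10, S11 and S12, the ovary S13, S14 and S15, and the testis S16 and S17. Each embryo library was made from 80 to 100 embryos. Each adult library pooled 30 beetles at 4 days after eclosion, and the ovaries came from virgin females. A carcass was the adult body without its gonads, so it mixed head, muscle, fat body, gut and cuticle. Fewer cells of a type and less RNA per cell cannot be told apart in such samples. No group was treated.

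In *Drosophila*, *flightin* encodes a protein of the indirect flight muscle that binds myosin and is needed to assemble thick filaments of normal length and stability. *Henna* encodes the fly's phenylalanine hydroxylase, which turns phenylalanine into tyrosine with a pteridine cofactor. Tyrosine feeds the tanning and pigmentation of insect cuticle, and *henna* mutant flies have altered pteridine eye pigments. These roles are known from the fly and were not examined in the beetle samples. Neither identifier matched the reference table of beetle genes, so no further genes of muscle or of tyrosine metabolism could be listed by name.

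Libraries held 18664366 to 34847471 reads in gene models, and 1 read was worth 0.0217 to 0.0595 CPM. The values are the authors' normalized expression, CPM scaled with TMM factors. They are not divided by transcript length, so levels of *flightin* and *henna* are not compared with each other. Testis genes named by the study matched their label, with *β2-tubulin* (*TC009035*) at 4347 CPM or more in testis and at most 12.9 CPM in ovary, female carcass and embryos. *Caudal* (*TC032769*), a patterning gene, was at 117.5 CPM or more in every embryo library and at most 40.8 CPM in any adult library. The ovary homologs *loco* (*TC009818*) and *quail* (*TC013108*) did not mark the ovary, since both had higher means in female carcass. Male carcass libraries also held transcripts of genes high in testis, with *β2-tubulin* at 124 to 329.4 CPM. Whether these came from testis tissue or from the male body itself was not tested.

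*Flightin* transcripts were abundant in the bodies of both sexes and scarce everywhere else. Female carcass libraries had 812.2 CPM in S7, 743.1 CPM in S8 and 850.3 CPM in S9 (801.8 ± 54.3, SD, n = 3). Male carcass libraries had 917.1, 951.1 and 929.4 CPM in S10, S11 and S12 (932.5 ± 17.2, SD, n = 3). The lowest carcass library exceeded the highest library of any other group 54.0-fold. All carcass libraries lay above all others for 21.7% of gene models tested. Testis was next, with 7.65 CPM in S16 and 13.8 CPM in S17 (10.7 ± 4.33, SD, n = 2). Ovary libraries S13, S14 and S15 had 3.11, 2.62 and 4.73 CPM (3.49 ± 1.10, SD, n = 3). The gonads did not overlap, since both testis libraries lay above all ovary libraries, as for 36.9% of gene models tested. Embryo (0-5 hr) had 0.886 CPM in S1, 4.05 CPM in S2 and 0.541 CPM in S3 (1.82 ± 1.93, SD, n = 3). Embryo (6-11 hr) had 2.34 CPM in S4, 2.29 CPM in S5 and 0.279 CPM in S6 (1.64 ± 1.18, SD, n = 3). The embryo stages overlapped, and S2 reached into the range of the ovary.

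*Henna* transcripts were found at a moderate level in all 17 libraries and were highest in the carcasses. Female carcass libraries S7, S8 and S9 were nearly equal at 259.3, 256.5 and 252.1 CPM (256.0 ± 3.62, SD, n = 3). Male carcass libraries were widely spread, with 184.8 CPM in S10, 105.6 CPM in S11 and 249.8 CPM in S12 (180.1 ± 72.2, SD, n = 3). Even the lowest carcass library, S11, stood 2.45-fold above the highest library outside the carcasses. Carcasses lay wholly above the rest for 21.7% of gene models tested. Testis had 41.0 and 43.2 CPM in S16 and S17 (42.1 ± 1.54, SD, n = 2). Embryo (0-5 hr) had 34.4, 36.4 and 34.9 CPM in S1, S2 and S3 (35.2 ± 1.06, SD, n = 3). Embryo (6-11 hr) had 29.3, 30.0 and 33.6 CPM in S4, S5 and S6 (31.0 ± 2.265, SD, n = 3). Ovary was lowest, with 24.7, 24.1 and 23.6 CPM in S13, S14 and S15 (24.1 ± 0.542, SD, n = 3). From testis down, neighboring groups in this order did not overlap although their gaps were small. Testis lay wholly above the early embryos, as for 49.1% of gene models tested, the late embryos wholly below the early ones, as for 14.6%, and ovary wholly below the late embryos, as for 38.9%.

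**Figure D1:**
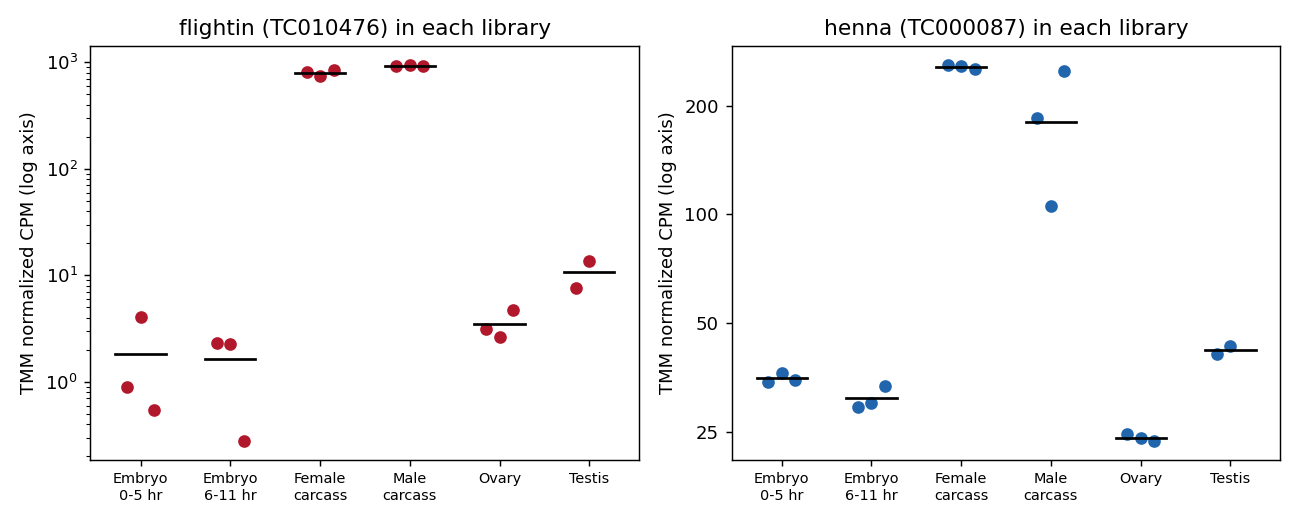
Level of *flightin* (left) and *henna* (right) in each library, as TMM normalized CPM on log axes of different range. Points are libraries and bars are group means. *Flightin* lies at 743.1 CPM or more in the carcasses and at 13.8 CPM or less elsewhere, while *henna* is at 23.6 CPM or more in every library.

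The carcass and gonad values that chose both genes differed greatly in size. The *flightin* mean was 229.8-fold higher in female carcass than in ovary and 87.1-fold higher in male carcass than in testis. For *henna* the same ratios of mean CPM were 10.6 and 4.28. On the log2(CPM + 1) scale, the mean of the carcasses exceeded that of the gonads by 6.94 for *flightin* and 2.67 for *henna*. The 12152 gene models tested were ranked by another measure, the log2 ratio of mean CPM with 1 added to each mean. By it, 24 had a larger difference than *flightin* and 723 a larger difference than *henna*. By the call rule defined next, 27.8% of gene models were higher in carcasses than in gonads, from which nothing is read for genes chosen that way.

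Gene models that reached 5 CPM in 3 libraries or more were tested with limma, and a gene was called at a 2-fold change or more with an adjusted p under 0.01. *Henna* passed this minimum in all 17 libraries. *Flightin* passed it in 8, namely the carcasses and testes, so it entered the fit through groups where it was high. The carcass libraries were also those from which the study named both genes, so carcasses against embryos is described with no test as well. The mean of the carcasses stood above that of the embryo stages by 8.48 on the log2(CPM + 1) scale for *flightin* (standard error 0.29). For *henna* the difference was 2.62 (standard error 0.14). In plain CPM the ratio of means was 501.1 for *flightin* and 6.59 for *henna*. By the log2 ratio of mean CPM with 1 added, a larger difference was found for 56 gene models in the case of *flightin* and for 2782 in the case of *henna*.

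*Flightin* was higher in gonads than in embryos, by 1.54 on the log2(CPM + 1) scale (standard error 0.31, adjusted p = 0.000259 from limma), where 34.9% of gene models were called higher. It was 0.79, under 2-fold, on the log2(CPM + 5) scale. Gonad values, low beside the carcass, shared in choosing both genes, so the gonad tests here and below are not free of that choice. Testis exceeded embryo (0-5 hr) by 2.21 (standard error 0.46, adjusted p = 0.000400 from limma) and embryo (6-11 hr) by 2.23 (standard error 0.46, adjusted p = 0.000381 from limma). In these comparisons 36.9% and 34.4% of gene models were called higher. Testis has 2 libraries, so its spread was taken from all groups together. With those groups alone in the fit, testis against the early embryos was not called (adjusted p = 0.0129 from limma). Without testis library S17 neither was called, at 1.82 (adjusted p = 0.0124 from limma) and 1.84 (adjusted p = 0.0120 from limma). Ovary was not called against embryo (0-5 hr), with a difference of 0.85 (95% interval -0.03 to 1.72, adjusted p = 0.0723 from limma). Without S2 that difference was 1.37 and was called (adjusted p = 0.00328 from limma), beside 30.2% of gene models called higher in ovary with all libraries. For *henna* the mean of the gonads was at -0.05 against the embryos (95% interval -0.37 to 0.28, adjusted p = 0.779 from limma), an average of gonads on opposite sides of the embryos. Ovary was at -0.53 against embryo (0-5 hr) (95% interval -0.96 to -0.10, adjusted p = 0.0280 from limma) and was not called. With those groups alone in the fit the adjusted p was 0.000459 from limma, still under a 2-fold change. Testis was at 0.25 against the same embryos, as given below.

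Neither gene was called between male and female carcass. Carcass values of both sexes shared in choosing the genes, so this comparison is not free of that choice either. All male carcass libraries were above all female ones for *flightin*, a ratio of means of 1.16. The same arrangement, every male library higher, was found in 9.77% of gene models. The log2 difference was 0.22 (95% interval -0.65 to 1.09, adjusted p = 0.764 from limma) and the gene was not called. The spread behind this interval is shared over all groups, of which the embryos varied most. Fitted on carcass libraries alone, the adjusted p was 0.286 from limma. *Henna* went the other way, with every male library below every female library, as in 25.5% of gene models. Its log2 difference was -0.59 (95% interval -1.02 to -0.16, adjusted p = 0.0755 from limma) and it was not called either. This value rests largely on S11, since without that library it was -0.25 (adjusted p = 0.282 from limma). Without S12 it was -0.87 (adjusted p = 0.00284 from limma), still under the 2-fold change. In this comparison 5.13% of gene models were called higher in males and 0.0658% lower.

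**Figure D2:**
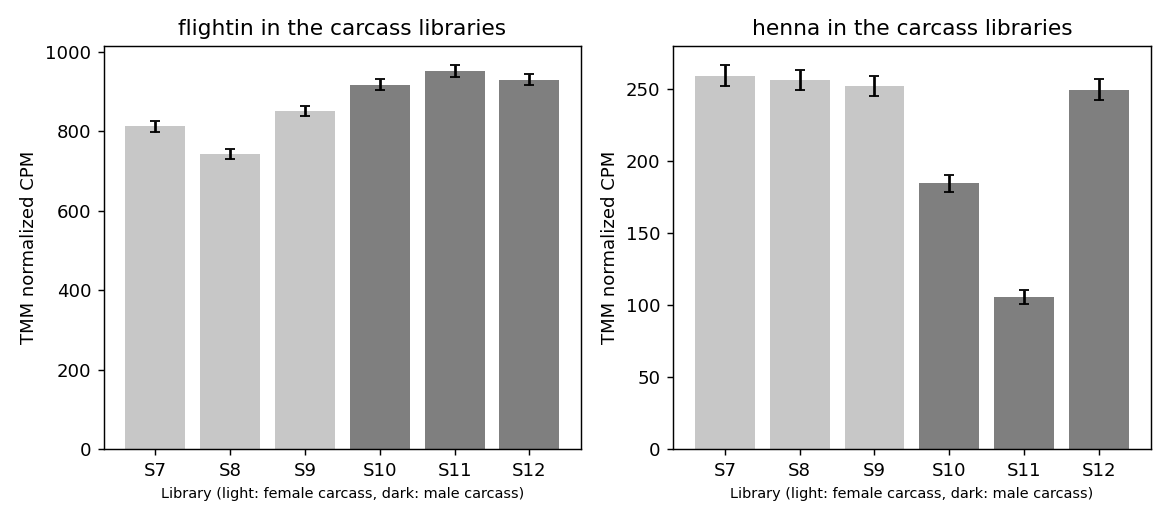
*Flightin* (left) and *henna* (right) in the 6 carcass libraries, as TMM normalized CPM, with bars for libraries and whiskers for the 95% Poisson interval of the reads. *Flightin* runs from 743.1 to 951.1 CPM, while *henna* drops to 184.8 CPM in S10 and 105.6 CPM in S11.

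The spread of *henna* among male carcasses was far larger than its counting error. The 1776 reads of S11 gave a 95% Poisson interval of 100.8 to 110.7 CPM, and the 4881 reads of S12 gave 242.8 to 256.9 CPM. The coefficient of variation of *henna* was 40.1% in male carcass, above 86.8% of tested gene models, and 1.42% in female carcass. *Flightin* varied by only 1.85% among the same male libraries, where the median gene model varied by 16.3%. *Henna* in S11 was at 42.3% of its level in S12. Under a cutoff of 50%, S11 was that low against S12 for 466 gene models, or 3.83% of those tested. Male carcass libraries also differed in transcripts of genes high in testis. Relative to the testis mean, 649 gene models that exceeded ovary by 16-fold or more in testis stood at a median of 2.39% in S10, 5.91% in S11 and 4.71% in S12. The same median was 0.285% to 0.390% in the female carcass libraries. *Henna* was lowest in S11, where this share was highest, but was higher in S12 than in S10, where the share was lower. The part of RNA from testis in the spread of *henna* was not tested.

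Between the gonads, both genes were higher in testis. For *flightin* the log2 difference was 1.36 (95% interval 0.38 to 2.34, adjusted p = 0.0154 from limma), which did not pass the adjusted p. It was 0.97 without S17 and 1.75 without S16. For *henna* it was 0.78 (95% interval 0.30 to 1.26, adjusted p = 0.00640 from limma), which passed the adjusted p but not the 2-fold change. Every testis library was above every ovary library for both genes, as in 36.9% of gene models, and 22.1% were called higher in testis. Both differences shrank when CPM were taken from library totals alone, to 0.82 (adjusted p = 0.143 from limma) for *flightin* and 0.15 (adjusted p = 0.589 from limma) for *henna*. That scaling moved the median gene model from -0.03 to -0.63. Relative to the median gene model, *henna* was at 0.81 as deposited and 0.78 under library totals, and *flightin* at 1.39 and 1.46.

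For *henna* the step from gonad to carcass was smaller in males than in females by the group means. The log2 difference of gonad over carcass was -3.35 in females and -1.99 in males, which left a difference between the sexes of -1.37 (standard error 0.30). It is given with no test, since carcass and gonad values chose the gene. Male carcass contributed a lower and testis a higher level. Without S11 the difference was -1.03. Under library totals it was -0.58, where the median gene model moved from -0.07 to 0.68. Relative to the median gene model it was -1.30 as deposited and -1.26 under library totals. For *flightin* the difference between the sexes was -1.14 (standard error 0.61).

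The embryo stages did not differ detectably in either gene. For *flightin* the log2 difference of the later over the earlier stage was -0.02 (95% interval -0.89 to 0.85, adjusted p = 0.992 from limma). It was 0.50 without S2 and 0.44 without S6, so its sign rests on those libraries. For *henna* it was -0.18 (95% interval -0.61 to 0.25, adjusted p = 0.593 from limma). The 6-11 hr libraries were all below the 0-5 hr libraries for *henna*, as given above, and 2.11% of gene models were called lower. In both genes S6, labelled 6-11 hr, was closer to the 0-5 hr libraries S1 and S3 than to S4 and S5.

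From high to low mean, *flightin* was ordered male carcass, female carcass, testis, ovary, early embryos and late embryos. Leaving aside female carcass and testis, which chose the gene, no neighbors in this order were called different. For *henna* the order was female carcass, male carcass, testis, early embryos, late embryos and ovary. Testis and embryo (0-5 hr) differed by 0.25 on the log2 scale (95% interval -0.23 to 0.73, adjusted p = 0.314 from limma). Ovary and embryo (6-11 hr) differed by -0.34 (95% interval -0.78 to 0.09, adjusted p = 0.132 from limma). As with *flightin*, no neighbors other than male carcass and testis, which were not tested, were called.

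The few *flightin* reads outside the carcass were unevenly spread over libraries of the same group. S2 had 137 reads against 29 in S1 and 19 in S3, with 95% Poisson intervals of 3.40 to 4.78 CPM, 0.594 to 1.27 CPM and 0.326 to 0.845 CPM. S6 had 6 reads (0.102 to 0.607 CPM), against 67 in S4 and 68 in S5. In testis, S17 had 240 reads (12.1 to 15.6 CPM) and S16 had 130 (6.39 to 9.08 CPM). The ovary libraries were closer, with 112 reads in S13 (2.56 to 3.75 CPM), 121 in S14 (2.18 to 3.14 CPM) and 125 in S15 (3.94 to 5.64 CPM). These intervals do not overlap within the stage or tissue, except for S1 with S3, S4 with S5 and S13 with S14, and they cover counting error only.

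**Figure D3:**
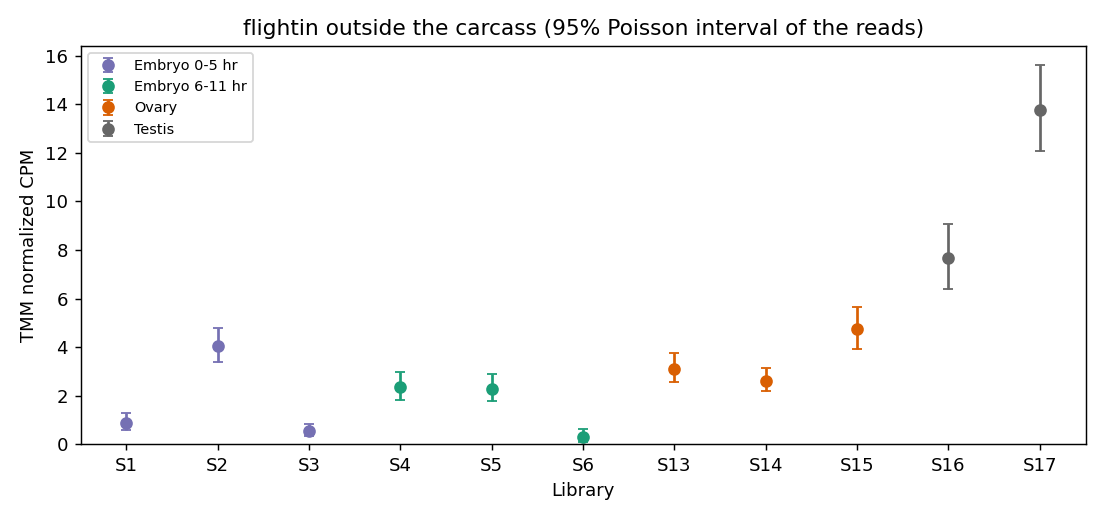
*Flightin* in the 11 libraries outside the carcass, as TMM normalized CPM with the 95% Poisson interval of the reads. S2 stands at 4.05 CPM above S1 and S3, S6 at 0.279 CPM below S4 and S5, and S17 at 13.8 CPM above S16.

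Other carcass genes moved with *flightin* in these libraries. A set of 172 gene models, without the members, was at least 16-fold higher in the mean of the carcasses than in that of the gonads. As a percent of the carcass mean, its median was 0.171 in S1, 0.537 in S2 and 0.114 in S3, and *flightin* was at 0.102, 0.467 and 0.0624. In the late embryos the set was at 0.336 in S4, 0.409 in S5 and 0.0953 in S6, and *flightin* at 0.270, 0.264 and 0.0322. S2 was above S1 and S3 for 148 of the 172 gene models (86.0%), against 49.9% of all gene models tested. S6 was below S4 and S5 for 151 (87.8%), against 51.7% of all. *Henna* varied little, at 13.5% to 16.7% of its carcass mean in the embryo libraries. It too was higher in S2 than in S1 and S3, at 36.4 CPM against 34.4 and 34.9 CPM, but in S6 it was above S4 and S5, at 33.6 CPM against 29.3 and 30.0 CPM. For the gonads, 1508 gene models at least 16-fold higher in carcasses than in embryos were compared. Their median in ovary libraries was 9.56% to 11.8% of the carcass mean, and in testis libraries 14.04% and 19.9%. *Flightin* was below the 10th percentile of this set in every gonad library, at 0.303% to 0.545% in ovary and 0.882% and 1.59% in testis. Low gonad values beside the carcass chose *flightin* but not the set, so its low rank follows from that choice. *Henna* was near the median, at 10.8% to 11.3% in ovary and 18.8% and 19.8% in testis. It would not enter the set, since its carcass mean was only 6.59-fold that of the embryos. The part of RNA from carcass tissue in the low *flightin* values was not tested.

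The ratio of *flightin* to *henna* within a library does not depend on the scaling of that library. In CPM it was 2.90 to 3.37 in female carcass and 3.72 to 9.003 in male carcass, with the highest value in S11. It was 0.109 to 0.200 in ovary, 0.187 and 0.319 in testis and 0.00831 to 0.111 in embryos. Since transcript length is not taken into account, its changes between libraries are of use and its size is not.

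Over the 17 libraries, the 2 genes had a Pearson r of 0.948 on log2(CPM + 1). This describes a shared contrast of carcass with the rest, since the libraries form such blocks. *Flightin* had 589 gene models at an r of 0.95 or more (4.85%) and 24 at 0.99 or more, and *henna* had 141 (1.16%) and 0. The gene model most like *flightin* was *TC012270* (r = 0.998), with 980.6 ± 132 CPM in female carcass, 1047 ± 135 in male carcass, 9.62 ± 2.95 in testis and 4.73 ± 1.21 in ovary (SD, n = 3, and n = 2 for testis). It was also highest among 0-5 hr embryos in S2, at 4.90 CPM. The next was *TC033810* (r = 0.996), with 3600 ± 460 CPM in female and 3036 ± 539 CPM in male carcass, and with 16.5 CPM in S2. As percents of their own carcass means, *flightin*, *TC012270* and *TC033810* stood at 0.467, 0.484 and 0.499 in S2. In S4 they were less alike, at 0.270, 0.162 and 0.106. Both gene models were chosen by r over these same libraries, S2 included, so likeness to *flightin* is built in.

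*Henna* had less close companions. These too were chosen by r over the same libraries, so a group order shared with *henna* follows from the choice. *TC005725* (r = 0.982) had 1658 ± 182 CPM in female carcass, 1222 ± 131 in male carcass, 395.1 ± 59.5 in testis, 213.8 ± 12.3 in ovary, 245.1 ± 10.2 in embryo (0-5 hr) and 290.3 ± 7.64 in embryo (6-11 hr). Like *henna* it was higher in testis than in ovary and higher in female than in male carcass by its means, while its late embryos were above the early ones, opposite to *henna*. *TC003044* (r = 0.982) had 60.7 ± 9.58 CPM in female and 42.2 ± 18.8 CPM in male carcass with at most 0.688 CPM in any other library. In S11 it was at 34.6% of its female carcass mean, *henna* at 41.3% and *TC005725* at 65.6%. In S12 they were at 80.0%, 97.6% and 81.5%. The files give no name or function for these gene models.

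**Figure D4:**
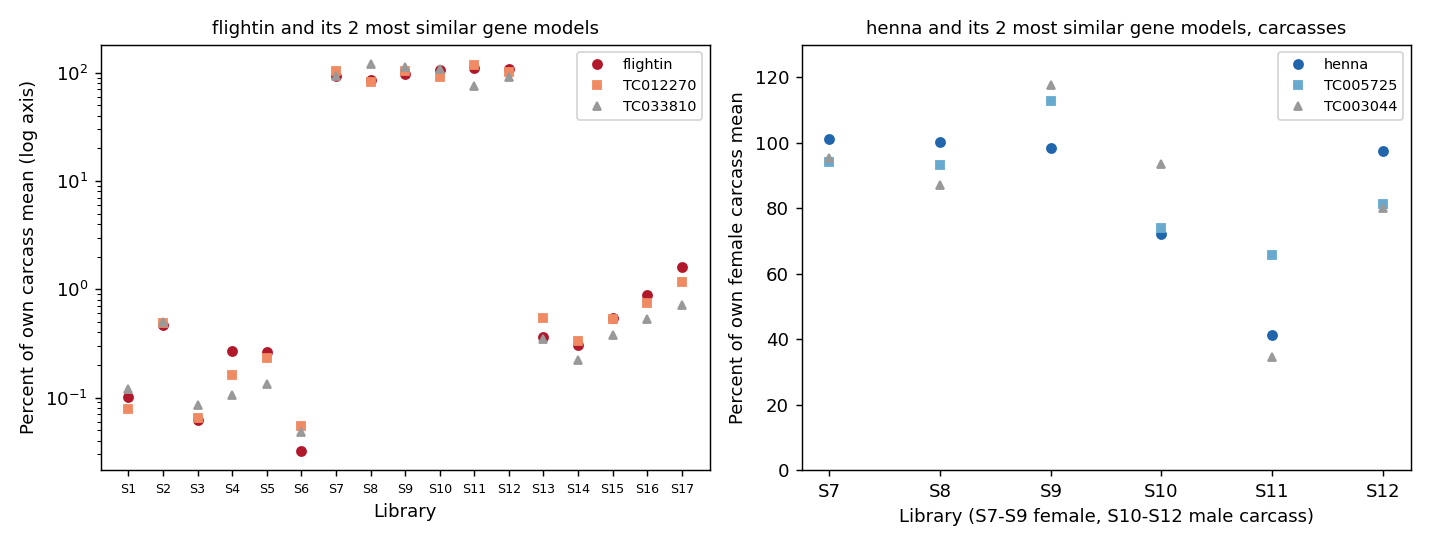
Left, *flightin*, *TC012270* and *TC033810* in each library as a percent of their own mean over the carcass libraries (log axis). Right, *henna*, *TC005725* and *TC003044* in the carcass libraries as a percent of their own female carcass mean. The left group is at 0.467 to 0.499% in S2 and at 0.106 to 0.270% in S4. The right group is at its lowest in S11, at 34.6 to 65.6%. Likeness within a panel is built in, since the gene models were chosen by correlation over these libraries.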

How the data were processed

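Per the study's methods, unpaired 75-nt reads were aligned with HISAT2 2.0.5 and BEDTools was used to count reads in each gene model, before TMM scaling by the authors. The deposited signal is TMM normalized CPM, which was multiplied back to whole reads for 100% of 209134 values (within 0.01 read). Depth, counted in the deposited gene models only, was 18664366 to 34847471 reads per library. Members, gene lists and tests were chosen with earlier results of these data known. All 12152 gene models at 5 CPM or more in 3 libraries were fitted with limma 3.58.1 (trend, robust) in R 4.3.3, on log2(CPM + 1), with the means of the 6 groups in a shared model and Benjamini-Hochberg adjustment within each comparison. Calls needed a change of 2-fold or more at an adjusted p below 0.01. Comparisons of carcass with gonad or embryo, and the difference between the sexes in the former, were described without a test because carcass values chose the genes. Gonad values shared in that choice, so tests that involve a gonad are not free of it. The test of male against female carcass is not free of it either. The script was tested on simulated reads, with levels alike in all groups apart from added changes. No result given here rests on that. Alternatives were edgeR 4.0.16 and DESeq2 1.42.0 on the recovered reads, other scalings, pseudocounts and filters, and leaving out each library. Named genes were the members, the 2 gene models most correlated with each, and label checks. Sets at 16-fold used group means with 1 CPM added. The reference table of 15518 genes held 1 of the 12282 TC identifiers and neither member, so no sequences are shown. Summaries used Python 3.11.15 and pandas 2.3.3.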

Additional observations from a re-analysis of the deposited data

How the results depend on the processing

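Of 150 alternative values for both genes in the tested main comparisons, 146 kept direction and side of the threshold. Only *flightin* in gonads against embryos, with 23 of these values, was called. The rest counted as kept by staying uncalled with the same sign, even where they varied. *Flightin* in testis against ovary, for example, ran from 0.82 to 1.75. For 120 values of differences given with no test, the yardstick was the largest replicate SD among the groups compared. Leaving out 1 library could not move a value that far. The filter, the moderation and the choice of groups fitted leave the value unchanged, so such alternatives could not fail. Of the 120 values, 117 moved by less than the yardstick. The exceptions were the difference between the sexes in the gonad to carcass step under library totals, at -0.58 for *henna* and -0.45 for *flightin*, and carcasses against embryos for *flightin* at 7.04 with 5 added to each CPM, and the cause was not tested. Gonads against embryos for *flightin* was 0.79 with 5 added to each CPM, which holds down low values. The stage difference of *flightin* changed sign, ranging from -0.35 to 0.50 as single libraries were left out (0.50 without S2, 0.44 without S6), and was 0.44 without S6 and S11 together, which was added once the values were known. Of the smaller differences, *henna* in testis against embryo (0-5 hr) changed sign under library totals (-0.16). *Flightin* in testis against embryo (0-5 hr) was not called with only those groups fitted (adjusted p = 0.0129 from limma).

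Library totals moved the median gene model of carcasses against embryos from 0.18 to -0.19, and relative to that median *flightin* was at 8.30 and 8.32 and *henna* at 2.45 and 2.41. Gene models called between the stages numbered 503, with 251 to 1492 over the alternatives and 976 without S6, 324 without S1 and 321 without S3, and between the carcasses 631, with 323 to 749. No pairing was used, since the labels record none. Whether a carcass and a gonad library came from the same beetles is not known, so they may not be independent. At these depths a *flightin* level of 0.279 CPM rests on 6 reads, and testis has 2 libraries.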
